A study of Mus musculus with 5 samples.

Results

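Collagens are the main structural proteins of the extracellular matrix. Their chains wind into a triple helix in the endoplasmic reticulum, where prolyl hydroxylases and lysyl hydroxylases modify them and the chaperone encoded by Serpinh1 holds them in shape. After secretion, propeptides are trimmed with the help of Pcolce, and the lysyl oxidases Lox and Loxl1 to Loxl3 start the cross-links between chains. Fibrillar types build tension-bearing fibres, type IV builds the sheet of basement membranes, and further types link, coat or anchor these structures. In soft tissue sarcomas, collagen is made both by tumour cells of mesenchymal character and by stromal cells.

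The set described here holds 44 listed mouse genes, namely 32 collagen chains and 12 enzymes and chaperones of collagen processing, out of 20018 genes that the arrays name. Probes were given symbols through their RefSeq accessions, and the brightest probe stood for a gene. Of the 44, 43 had a named probe, and no probe matched Col12a1. The probes fell to 10 fibrillar chains, 6 chains of basement membrane type IV, 15 chains of other types, and 12 enzymes and chaperones.

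RNA was measured on 5 one-colour arrays of tumour cells that carry doxycycline-inducible alleles of the EWS/ATF1 fusion, the driver of clear cell sarcoma, on a background mixed from C57/BL6, 129 and ICR. Each of the 5 groups has 1 array. They are high-dose doxycycline at 48 h, the control at 48 h, high-dose and low-dose doxycycline at 3 h, and the control at 3 h. All groups, controls included, carry the inducible alleles. The cells are lines grown out of mouse sarcomas. Which line gave each array, the doses, and whether the controls received any doxycycline are not stated in the labels. The comparisons ask what the fusion's expression level does to these genes early and late.

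Values are levels, the log2 signal of the gene's probe minus the array's 75th percentile, so a level compares a gene with itself between arrays and not with another gene. A 2-fold rule took the place of a test: the log2 difference had to reach 1 in size, with the probe above background on both arrays. With 1 array per group no difference has a replicate check, and an array pair can also differ in tumour line. The scanner software's error for a log2 difference, printed after ±, was 0.205 for the median member at 48 h and covers the reading of the spots only. In RNA from a whole culture, fewer cells of a kind and less RNA per cell cannot be told apart.

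Of the 43 members with a probe, 32 were above background on all 5 arrays by at least 1 probe, 6 on some and 5 on none. The 5 below background everywhere were Col11a1, a minor fibrillar chain of cartilage, Col4a3, Col8a1, Col13a1 and Col15a1. Between 55.5% and 60.0% of all probes were above background on each array, and the 75th percentile of signal lay between 420 and 725 units, lowest on the 48 h high-dose array. The 10 mesenchymal marker genes were above background on every array, and signal from lists of other cell types was present too. Of 8 epithelial markers 4 (Krt14, Krt5, Cldn4 and Esrp1) were above background on all 5 arrays, and Cdh1 and Krt8 on none. Of 8 endothelial markers Kdr and Pecam1 were above background on all 5 arrays, and Cdh5, Tie1 and Emcn on none.

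The promoter stretches of some members that were lower at 48 h, and of 2 that did not, are shown because the fusion carries the DNA-binding part of ATF1, which in its normal setting binds the cAMP response element. Each stretch is the 150 bases before the gene's start in RefSeq (GRCm38.p6), written 5′ to 3′ on the gene's strand. Capitals mark a match to the motifs CCAAT, TGACGTCA (the cAMP response element), its part TGACG, or TGANTCA (the AP-1 site), read on both strands. At 48 h, the high dose had lower Col1a2, Col3a1, Col6a1 and Col6a2. Col7a1 and Plod3 stayed under 2-fold. The stretches lie at chr6:4505468-4505617 (plus strand) for Col1a2, chr1:45311388-45311537 (plus) for Col3a1, chr10:76726045-76726194 (minus) for Col6a1, chr10:76623631-76623780 (minus) for Col6a2, chr9:108953436-108953585 (plus) for Col7a1 and chr5:136986869-136987018 (plus) for Plod3.
Col1a2: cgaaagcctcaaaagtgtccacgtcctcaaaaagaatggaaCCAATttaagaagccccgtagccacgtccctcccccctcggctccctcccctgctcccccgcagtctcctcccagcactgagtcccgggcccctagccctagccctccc
Col3a1: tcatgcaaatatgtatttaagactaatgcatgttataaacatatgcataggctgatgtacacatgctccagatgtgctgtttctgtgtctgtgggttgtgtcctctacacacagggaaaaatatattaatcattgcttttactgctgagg
Col6a1: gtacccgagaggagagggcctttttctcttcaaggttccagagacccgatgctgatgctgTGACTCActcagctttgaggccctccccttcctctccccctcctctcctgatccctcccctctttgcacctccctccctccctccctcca
Col6a2: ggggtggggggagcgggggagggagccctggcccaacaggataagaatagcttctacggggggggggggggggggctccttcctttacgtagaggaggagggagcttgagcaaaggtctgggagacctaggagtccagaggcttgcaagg
Col7a1: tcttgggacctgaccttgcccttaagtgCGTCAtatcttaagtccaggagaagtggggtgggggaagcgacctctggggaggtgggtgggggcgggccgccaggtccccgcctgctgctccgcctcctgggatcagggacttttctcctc
Plod3: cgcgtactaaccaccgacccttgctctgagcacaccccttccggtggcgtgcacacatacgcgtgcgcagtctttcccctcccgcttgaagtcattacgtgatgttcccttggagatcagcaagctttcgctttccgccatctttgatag

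RefSeq promoter windows of 300 bases, 250 before and 50 after a start, were found for 32 members, 35 windows in all. The full cAMP response element was in 0 of the 35, against 1.79% of 32851 windows of all genes. Its part TGACG, which the full element also contains, was in 4 of the 35, against 20.8% of all windows, and the AP-1 site was in 1, that of Col6a1, against 7.81%. CCAAT, the box bound by the factor NF-Y, was in 12 of the 35 against 37.4%. By gene, CCAAT was present for 5 of 10 members that were lower at 48 h and for 5 of 15 that stayed under 2-fold. These are matches of letters in a short window and say nothing of binding.

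After 48 h of the high dose, most fibrillar chains were lower than in the 48 h control. So were both type VI chains of the set and the cross-linking enzymes Lox and Loxl1. The hydroxylases, the chaperone Serpinh1 and Pcolce differed little. Of 33 members measured on both arrays, 13 were lower and 2 higher at 2-fold. Over all 13739 genes measured there, 10.1% were lower and 9.94% higher. The median difference was -0.27 over the members and 0.05 over all genes. A further 3 members were below background at the high dose on all their probes and give only bounds, 1 (Col14a1) had its brightest probe below background at the high dose and another probe above it, and 6 were below background on both arrays. The counts follow the brightest probe, so Col4a6, Col9a1 and Loxl2 stand among the measured members under 2-fold. Yet another probe of each, described with these genes, went past 2-fold. Against the 3 h control array, 13 of 31 measured members were lower and 1 higher, with 8.85% and 9.44% of all genes. Against the 3 h high dose, 13 of 33 were lower and 1 higher, with 8.38% and 9.17%, but the lower members were not all the same: Col1a1, Col1a2 and Col17a1 were under 2-fold there, and Col27a1 (-1.34), Col4a1 (-1.27) and Col4a2 (-1.11) were lower.

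**Figure D1:**
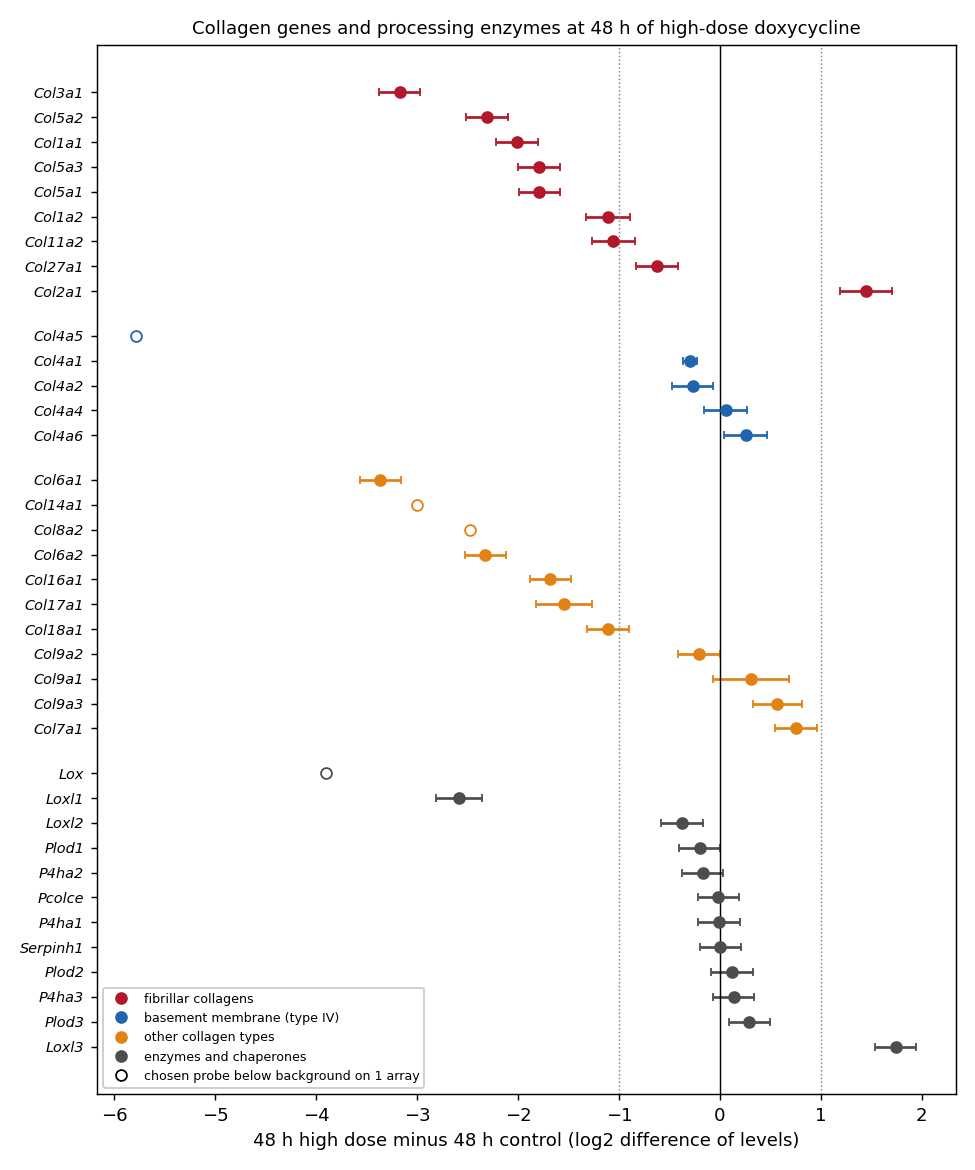
Log2 difference between the 48 h high-dose and 48 h control arrays for each member above background on at least 1 of them, with the scanner software's error as bars and dotted lines at 2-fold. Of the 9 measured fibrillar chains 7 lie left of the 2-fold line, while 9 of 11 measured enzymes and chaperones lie between the lines. Open points mark members whose chosen probe was below background on 1 array, for which the plotted difference is not a measured fold.

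Among the 9 measured fibrillar chains, 7 were lower, 1 was higher and the median difference was -1.79. Col3a1, the chain of type III collagen in pliable tissues, had a level of -1.70 at 48 h of the high dose, against 1.48 in the 48 h control. At 3 h it was 1.25 in the control, 1.15 with the low dose and 0.19 with the high. The 48 h high-dose array was thus the lowest of the 5, and the difference at 48 h was -3.17 ± 0.21, or 9.03-fold lower.

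Col1a1 and Col1a2 encode both chains of type I collagen, the main fibre of bone, skin and tendon. Col1a1 stood at -1.21 at 48 h of the high dose, against 0.80 in the control, and at 0.50, 0.87 and -0.38 at 3 h in the order control, low, high. Its difference at 48 h was -2.01 ± 0.21, a 4.02-fold lower level, and the 3 h high dose had the next lowest value. Col1a2 was at -2.90 with the high dose at 48 h, against -1.79 in the control, and at -1.65, -1.46 and -2.10 at 3 h in the order control, low, high. It lay 1.11 below its 48 h control (2.16-fold lower, error 0.22), which is within the reading error of the 2-fold line. Both chains of the same trimer thus had their lowest level on the same array.

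Type V collagen sits inside type I fibrils and sets their width. Its chain Col5a2 had a level of -1.58 at 48 h of the high dose, against 0.73 in the control, and levels of 0.62, 0.86 and 0.42 at 3 h in the order control, low, high. That is a difference of -2.31 ± 0.21 at 48 h. Col5a1 was at -0.02 at the high dose, against 1.77 in the 48 h control, with 1.92, 1.99 and 1.75 at 3 h in the order control, low, high. Col5a3 was at 1.36, against 3.16 in the 48 h control, with 3.47, 3.24 and 3.39 at 3 h in the same order. Both were 3.46-fold lower at 48 h. For all 3 chains the 4 other arrays lay within 0.45 of one another, and only the 48 h high-dose array stood apart.

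Col11a2, a chain of cartilage collagen, was at -2.18 at 48 h of the high dose, against -1.12 in the control and -0.37, -0.53 and -0.35 at 3 h in the order control, low, high. Its 48 h difference of -1.05 ± 0.21 was at the 2-fold line, and its 48 h control was already 0.75 below the 3 h control. Col27a1, a fibrillar chain of developing cartilage, was under 2-fold at 48 h, at -2.07 with the high dose and -1.45 in the control. At 3 h its levels were -1.94, -0.85 and -0.74 from control to low to high. The exception in direction was Col2a1, the major collagen of cartilage. Its level was -2.78 at 48 h of the high dose, against -4.23 in the control, and it was -5.26 (below background), -4.61 and -3.74 at 3 h in the order control, low, high. At 48 h it was 2.73-fold higher (1.45 ± 0.25), and its signal was dim throughout.

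**Figure D2:**
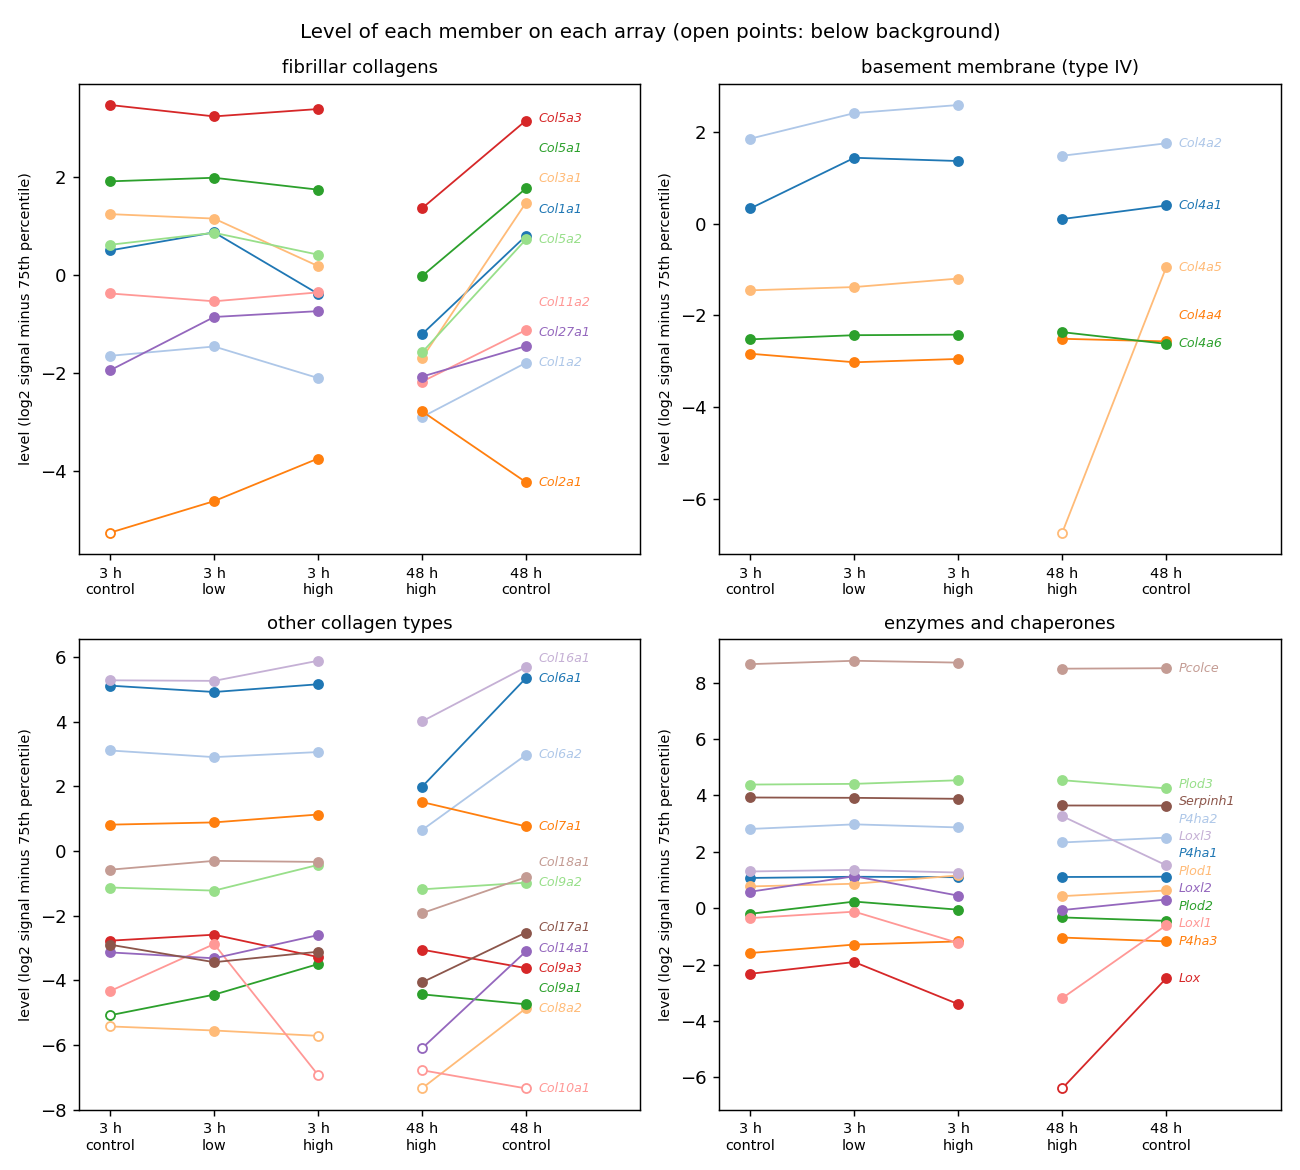
Level of each member (log2 signal minus the array's 75th percentile) on the 5 arrays, in 4 panels by group, with open points below background. Levels of different genes are not comparable. Most fibrillar lines, Col6a1, Col6a2, Lox and Loxl1 dip on the 48 h high-dose array, whereas Serpinh1, Pcolce, P4ha1 and Plod3 run nearly flat. P4ha2, P4ha3, Plod1 and Plod2 span between 0.55 and 0.73 over the 5 arrays.

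The common chains of type IV collagen, the sheet-forming collagen of basement membranes, are Col4a1 and Col4a2, and both stayed under 2-fold at 48 h. Of 4 measured type IV members 0 were lower and 0 higher by their brightest probes, against 10.1% and 9.94% of all genes. So small a count does not set type IV apart from all genes, and it leaves out Col4a5, below background at the high dose. The median difference of the 4 was -0.11. Col4a1 was at 0.10 at 48 h of the high dose, against 0.40 in the control, and at 0.34, 1.44 and 1.37 at 3 h in the order control, low, high. Its probe had 10 spots, so the scanner software's error, averaged over them, was the smallest among the measured members (0.06). That error is modelled per spot, and the spread between the spots was not computed. Col4a2 stood at 1.48 with the high dose at 48 h, against 1.75 in the control, and at 1.86, 2.41 and 2.59 at 3 h in the order control, low, high. Both were thus highest on the 3 h doxycycline arrays and differed at 48 h by -0.30 and -0.27. Between the high-dose arrays, however, both passed 2-fold and were lower at 48 h than at 3 h, as 2 of 4 measured type IV chains. The genes sit head to head, with RefSeq starts 21 bases apart on opposite strands.

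Col4a5, a chain of kidney and smooth muscle basement membranes, was above background on all arrays but that of the 48 h high dose. Its level was -6.74 (below background) at 48 h of the high dose, against -0.95 in the control, and -1.45, -1.38 and -1.20 at 3 h in the order control, low, high. That makes it at least 20.1-fold lower at 48 h, a bound against the lowest signal above background on the dim array. Col4a6 lies head to head with Col4a5, with starts 1343 bases apart. Its brightest probe differed by 0.25, with levels between -2.62 and -2.36 on the 5 arrays. Its second probe was below background at 48 h of the high dose and at -3.10 in the control, which is at least 4.52-fold lower. The probes of Col4a6 thus disagree. Col4a4 also had a brightest probe near its control (0.06) and a second one that was below background at the high dose only.

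**Figure D3:**
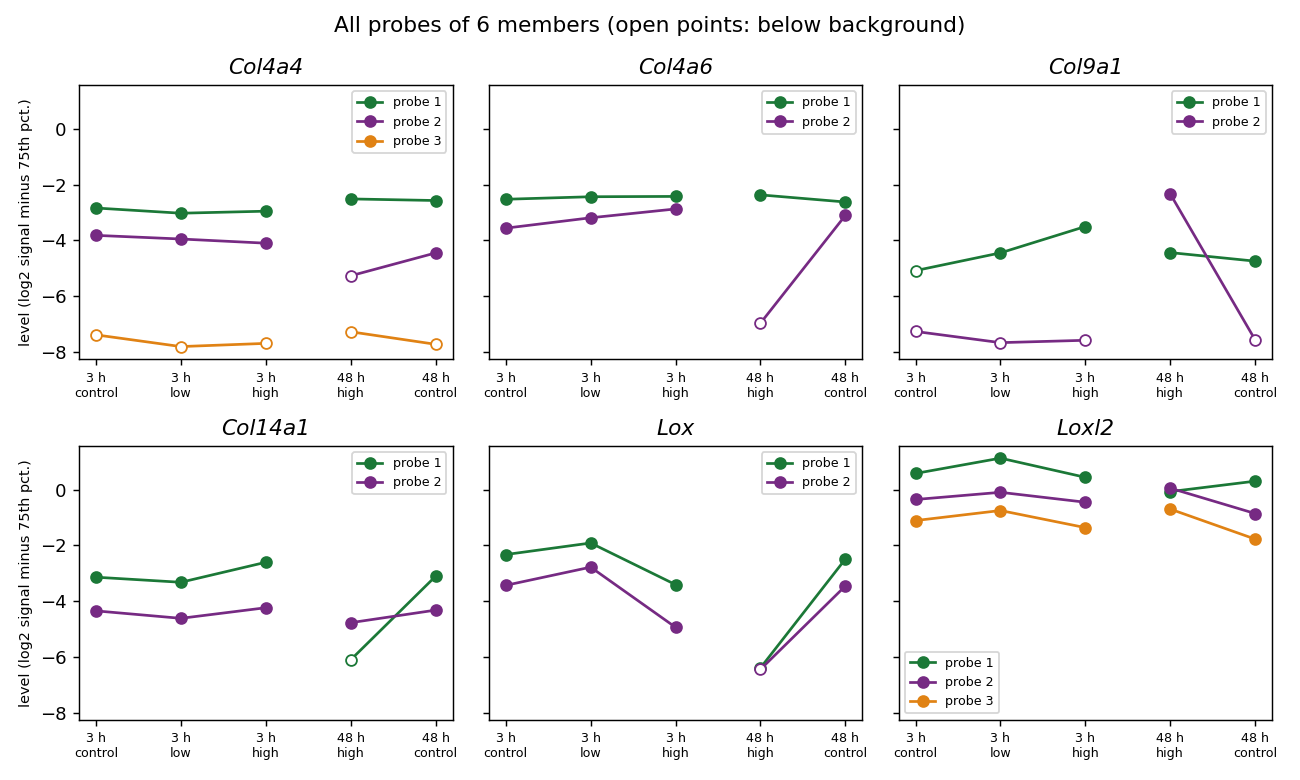
Levels on the 5 arrays of all probes of 6 members, with open points below background. The probes of Lox move alike, while those of Col4a6, Col9a1 and Col14a1 disagree at 48 h of the high dose.

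Among the other types, 5 of 9 measured members were lower, 0 were higher and the median difference was -1.11. Type VI collagen forms beaded filaments around cells. Col6a1 had a level of 1.98 at 48 h of the high dose, against 5.34 in the control, and levels of 5.11, 4.91 and 5.15 at 3 h in the order control, low, high. This 10.3-fold lower value (-3.36 ± 0.20) was the largest difference between 2 levels above background in the set. Col6a2 was at 0.64, against 2.97 in the 48 h control, and at 3.11, 2.90 and 3.06 at 3 h in the order control, low, high, and was 5.01-fold lower. For both chains the 4 other arrays lay within 0.43, so the 48 h high dose was alone.

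Col16a1, a chain that coats fibrils, was at 4.01 at 48 h of the high dose, against 5.69 in the control, and at 5.28, 5.26 and 5.88 at 3 h in the order control, low, high. Its 3 probes gave differences of -1.68, -1.48 and -1.43. Col18a1, which carries the endostatin domain of vessel basement membranes, was 2.16-fold lower (-1.93 with the high dose, -0.81 in the control), and -1.26 on its second probe. At 3 h its levels were -0.58, -0.31 and -0.34 in the order control, low, high. Col17a1, a transmembrane collagen of hemidesmosomes, was at -4.07, against -2.52 in the control, and at -2.90, -3.44 and -3.12 at 3 h in that order. Its difference of -1.54 ± 0.28 rests on a dim signal and was -0.45 with the normexp background. These 3 genes also had their lowest level on the 48 h high-dose array.

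The remaining types were mixed. Col7a1, the collagen of anchoring fibrils, was 0.75 higher at 48 h of the high dose, with a level of 1.51 against 0.76, and was under 2-fold in all comparisons. The chains of type IX, which decorate cartilage fibrils, differed by 0.31 for Col9a1, -0.21 for Col9a2 and 0.57 for Col9a3. A second Col9a1 probe was above background on the 48 h high-dose array only, at least 8.70-fold higher than in the control. Col14a1, which binds fibril surfaces, had a first probe below background at the high dose and -3.11 in the control, at least 4.51-fold lower, and a second probe that differed by -0.45. Col8a2 was above background on the 48 h control and 3 h low-dose arrays only, with a bound of 1.33-fold at 48 h. Col10a1, of growing cartilage, was above background only on the 3 h control (-4.33) and 3 h low-dose (-2.88) arrays.

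Pcolce and the enzymes and chaperone that act on the chain inside the cell differed by little. Pcolce, which speeds the removal of the C-propeptide outside the cell, differed by -0.02 at 48 h, with levels of 8.49 at the high dose and 8.51 in the control. Serpinh1, the collagen-specific chaperone, differed by 0.00 ± 0.20, with levels of 3.64 on both 48 h arrays. Prolyl hydroxylase subunits P4ha1, P4ha2 and P4ha3 differed by -0.01, -0.17 and 0.14, and P4ha1 spanned 0.04 over all 5 arrays. The lysyl hydroxylases Plod1, Plod2 and Plod3 differed by -0.20, 0.12 and 0.29. By their brightest probes all 8 genes lay within 0.29 of their 48 h control, though a second Plod1 probe differed by -0.63, while 12 of 22 measured collagen chains were at least 2-fold lower.

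The lysyl oxidase family split. Lox was at -6.39 (below background) at 48 h of the high dose, against -2.49 in the control, and at -2.33, -1.91 and -3.40 at 3 h in the order control, low, high. It was at least 6.92-fold lower at 48 h, and at least 3.54-fold lower on its second probe. Loxl1, best known for elastic fibres, was at -3.19, against -0.61 in the 48 h control, and at -0.35, -0.12 and -1.24 at 3 h in the order control, low, high. It was lower by 2.59 ± 0.23 on the log2 scale, and by 2.40 on its second probe. Both genes were lowest at 48 h of the high dose and next lowest at 3 h of the high dose.

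Loxl3, by contrast, was at 3.26 at 48 h of the high dose, against 1.52 in the control, and at 1.30, 1.36 and 1.26 at 3 h in the order control, low, high. It was 3.35-fold higher (1.74 ± 0.20), the 1 member that was at least 2-fold higher there than on each of the 4 other arrays. Loxl2, which also acts on type IV collagen, gave no clear direction, since its 3 probes differed by -0.37, 0.91 and 1.08.

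Set against all 4 other arrays at once, 10 of the 31 members above background on every array were at least 2-fold lower at 48 h of the high dose, against 5.78% of 13470 genes, and 1 was higher, against 5.76%. The 10 were Col3a1, Col5a1, Col5a2, Col5a3, Col11a2, Col6a1, Col6a2, Col16a1, Col18a1 and Loxl1. Col1a1 and Col1a2 passed 2-fold against both controls but not against the 3 h high dose, where they differed by -0.83 and -0.80. Of the 31, 20 had their lowest level on the 48 h high-dose array, which held the lowest level for 34.9% of all genes. The control arrays differed by less than 2-fold for all 34 members measured on both, with 2.50% of all genes higher and 1.36% lower at 48 h than at 3 h.

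At 3 h of the high dose the median member moved little, with a difference of 0.03 against -0.01 over all genes. Of 34 measured, 2 were lower and 2 higher than in the 3 h control, or 5.88% each way. Over all genes 1.45% were lower and 1.85% higher. The larger shares of the members rest on few genes. The lower members were Col3a1 (-1.06 ± 0.20) and Lox (-1.08 ± 0.22), both also far lower at 48 h. Col1a1 and Loxl1 came next, at -0.89 and -0.88 (-0.34 on the second Loxl1 probe, -1.51 on that of Lox). All 4 values (Col3a1, Lox, Col1a1, Loxl1) lie within 1 reading error of 2-fold, and they became -1.29, -0.92, -1.18 and -0.63, in that order, against the 48 h control, where 2 of 36 measured members were lower and 1 higher, with 3.09% and 1.96% of all genes. The higher members were Col27a1, at -0.74 with the high dose and -1.94 in the control (1.21 ± 0.21), and Col4a1 (1.03 ± 0.06). Against the 48 h control their differences were 0.71 and 0.97. Macrophage markers also differed between the 3 h arrays, with 7 of 12 above background at the high dose and 10 in the control. Of 7 measured on both, 2 were lower, Ctss at -4.01 and Cd74 at -1.43, while Lyz2, Tyrobp and C1qc were above background in the control only. Against the 48 h control 0 of 7 macrophage markers passed 2-fold at 3 h of the high dose. These markers were chosen after their values were seen, and their part in the collagen differences was not tested.

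Some cartilage chains near background also differed at 3 h of the high dose, in both directions. Col2a1 was at least 2.70-fold higher than in the 3 h control, and Col10a1 at least 2.25-fold lower. For Col9a1 the floor was its own below-background level. Its 2.99-fold higher value is thus the plain difference (1.58, scanner error 0.41) and not a minimum. The second Col9a1 probe was below background on both arrays. The levels of Col9a1 were -5.08 (below background), -4.44 and -3.50 in the control, low dose and high dose. Of the chondrocyte and bone markers 1 of 7 measured was 2-fold higher at this time, Hapln1 at 1.47, a gene named after its values were seen.

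**Figure D4:**
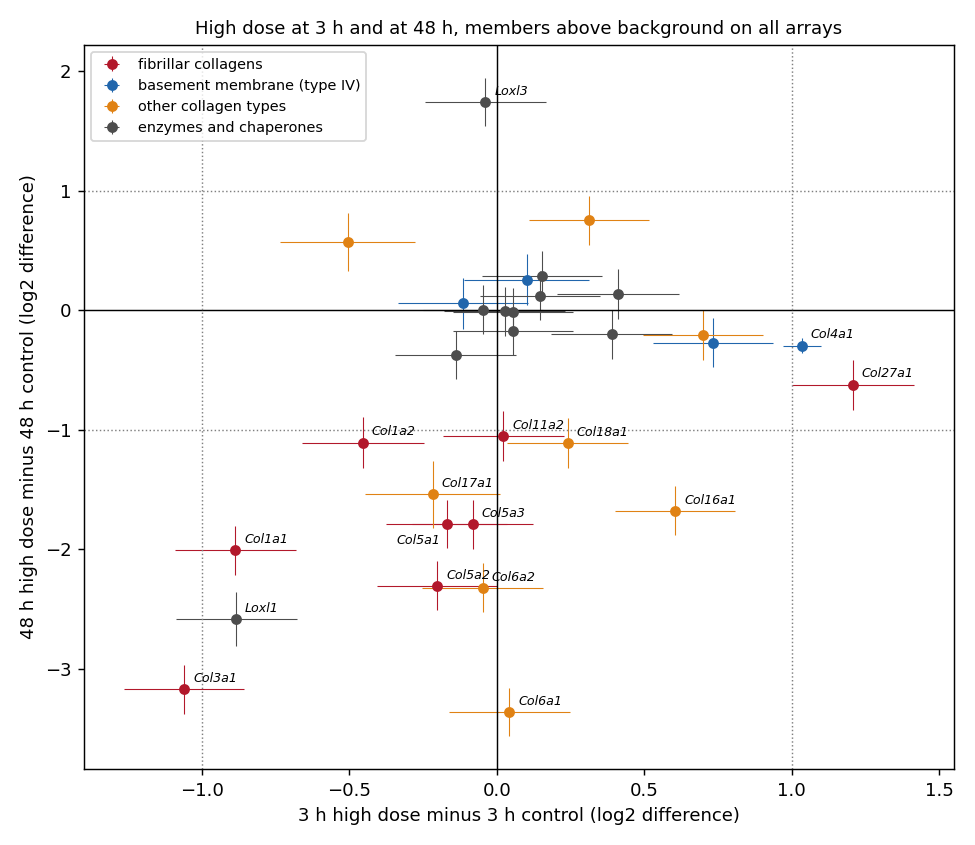
Log2 difference of high dose and control at 3 h (horizontal) and 48 h (vertical) for the 31 members above background on all arrays, with scanner errors as bars and dotted lines at 2-fold. Col3a1, Col1a1 and Loxl1 lie low on both axes, Col6a1 and Col6a2 only on the vertical one, and Col4a1 and Col27a1 lie at the right.

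With the low dose at 3 h, 3 of 35 measured members were higher and 0 lower than in the 3 h control, against 0.789% and 0.583% of all genes. These were Col10a1 (1.45 ± 0.29), Col4a1 (1.10 ± 0.06) and Col27a1 (1.09 ± 0.21). The values of Col4a1 at both doses were close, at 1.44 (low) and 1.37 (high). Both comparisons share the 3 h control array, so the doses' differences from it are not independent. Against the 48 h control, 0 of 37 members were lower and 2 higher with the low dose, with 3.24% and 2.11% of all genes.

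The high dose against the low dose at 3 h uses no control. Of 36 measured members 3 were lower and 0 higher, against 0.913% and 1.27% of all genes. Lox was lower by 1.49 on the log2 scale (2.82-fold lower), Col1a1 was 2.39-fold lower and Loxl1 2.16-fold lower. Col3a1 was just under 2-fold, at -0.97. Col10a1 was at least 6.15-fold lower. The type V and type VI chains differed by at most 0.45 between the doses, in contrast to their 48 h values. Smooth muscle genes moved in this comparison as well: 4 of 4 measured muscle markers were lower, Acta2 at -1.68, Tagln at -1.55, Cnn1 at -1.37 and Myl9 at -1.14. Against the 3 h control, in the same order, they were at 0.87, 1.47, 2.46 and 0.72 with the low dose. With the high dose they were at -0.81, -0.08, 1.08 and -0.42. Of 7 measured macrophage markers 2 were lower, Ctss at -3.93 and Cd74 at -1.12. These too were chosen after their values were seen, and their part was not tested.

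Genes of the same pathway outside the set were also read at 48 h. At 2-fold, 10.1% of all genes were lower there and 9.94% higher. Of 22 further processing genes 18 were measured on both arrays, of which 1 was higher, 0 were lower and the median was 0.28. The higher one was P3h1, a prolyl 3-hydroxylase, at 1.11. Not counted there are P3h2, of the same family, below background at the high dose and at -3.44 in the control, and the lysyl oxidase Loxl4, below background at the high dose and at -3.92 in the control. Of 12 further collagen chains 3 were measured on both arrays, Col25a1 and Col23a1 at 1.80 and 1.29, both transmembrane collagens, and Col20a1 at -1.81. Col6a4, a further type VI chain, and Col22a1 were at -4.02 and -4.31 at the high dose and below background in the 48 h control. Among 13 measured genes of collagen degradation and collagen receptors, 5 were lower and 2 higher, against 10.1% and 9.94% of all genes. Lower were the gelatinase Mmp2 (-2.06), the collagen uptake receptor Mrc2 (-1.54), the inhibitor Timp2 (-1.41), the collagen receptor kinase Ddr2 (-1.23) and the surface protease Fap (-1.03). The metalloproteinase inhibitors Timp1 and Timp3 were higher by 2.02 and 1.47. The collagen-binding integrin Itga11 was below background at the high dose and at -1.92 in the control, and the collagenase Mmp13 was at -2.12 at the high dose and below background in the control. The P3h2, Loxl4, Col6a4, Col22a1, Itga11 and Mmp13 values were picked out after they were seen.

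Other markers moved with the 48 h values, on an array pair where 10.1% of all genes were lower and 9.94% higher at 2-fold. All 10 mesenchymal markers were lower in value at the high dose, 5 of them at 2-fold, namely the growth factor receptors Pdgfra (-2.89) and Pdgfrb (-1.52), the proteoglycan Dcn (-2.50), S100a4 (-2.38) and the transcription factor Twist1 (-2.04). Their summed signal, in multiples of the 75th percentile, was 283 at the high dose and 553 in the control. Of 10 proliferation genes 8 were measured on both arrays and all 8 were higher, with a summed signal of 152 at the high dose and 23.0 in the control. Of 12 macrophage markers 11 were above background at the high dose and 7 in the control, and the summed signal was 65.0 at the high dose and 34.6 in the control. Higher among them were Ctss (6.09), Csf1r (2.41), Cd14 (1.96), C1qb (1.42) and Cd74 (1.16), of 7 measured on both arrays. Adgre1 (0.59) and Itgam (-0.52) were under 2-fold. The sum weights bright probes, chiefly those of Csf1r and Itgam. Csf1r was at 5.30 at the high dose and 2.89 in the control, Itgam at 4.16 and 4.68. Among the proliferation genes Mki67, Ccna2, Rrm2, Top2a and Ccnb1 were higher by 5.09 to 6.86, and Cdk1, Mcm2 and Pcna by 3.24, 2.57 and 1.98. Other markers at 2-fold included Alpl (1.32) of 3 measured cartilage and bone markers, Cldn4 (1.71) and Krt14 (-1.37) of 4 epithelial ones, Ngfr (-6.45) among the neural crest and melanocyte ones, and Myl9 (-3.52) of 3 muscle ones. Of 2 measured endothelial markers 0 passed 2-fold. The part of these shifts in the collagen values was not tested.

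A limma fit over 4 arrays, without the low dose, fitting high dose and time together, was the only test the design allowed. It has 1 residual degree of freedom and counts an effect at 1 time only as error. It took levels below background as values, among them Lox at 48 h of the high dose (-6.39) and Col2a1 in the 3 h control (-5.26). It called 0 of 36 members after Benjamini-Hochberg adjustment, and 0% of 14599 genes in either direction. At an unadjusted p under 0.05, 4 members were lower (Col1a1, Col3a1, Loxl1 and Lox) and 1 was higher (Col2a1), against 1.51% and 1.95% of all genes.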

How the data were processed

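The authors deposited 1-colour scanner output, linear intensity per spot; per the file headers, Agilent's Feature Extraction subtracted background and detrended each array, and no step between arrays is recorded (Agilent Feature Extraction 10.7.3.1, per the submitters' processing notes). Control spots were dropped, as were 111 to 146 outlier spots an array; saturation marked 0 spots. Log2 signals were centred on each array's 75th percentile and averaged per probe. A probe counted as above background if the scanner software marked a share of 0.5 or more of its spots. The deposited value table matched its arrays within 0.001 (log2) for 100% of probes. Accessions were matched to RefSeq symbols (26413 of 55681 probes; several symbols for 0). For a bound, the floor on the dim array was its lowest above-background level or the probe's own level if higher. The limma fit (version 3.58.1, R 4.3.3) used the intensity trend over genes above background on at least 2 arrays. Promoters are RefSeq's, of GRCm38.p6; the array headers name mm9. Protein sequences were not used here.

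The members, lists and rules were chosen with earlier results of these data known. Members at 2-fold at 48 h or 3 h of the high dose, and Col1a1, Col1a2, Col3a1, Col4a1 and Col4a2, have their level on every array printed. Alternatives were median centring, quantile normalization, normexp (offset 50, on spot and background medians, as the files hold no spot means), no filter on dim probes, the mean of all probes, and other comparison arrays. The result of 1 further marker gene at 48 h is not reported here.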

Additional observations from a re-analysis of the deposited data

Results flagged for a closer look

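For 3 members the high dose and its control differed in opposite directions at the 2 times, with 1 of the differences at 2-fold or more and both beyond 2 scanner errors. Another 4 members (Col6a1, Col11a2, Col18a1 and Loxl3) also had opposite signs with 2-fold at 48 h, but their 3 h differences, between -0.04 and 0.24, were within 2 scanner errors of 0. The difference between the times was not tested, since each group has 1 array. Col27a1 was at -0.62 at 48 h and 1.21 at 3 h. Col4a1 was at -0.30 at 48 h and 1.03 at 3 h. Its -0.30 lies beyond 2 scanner errors only with its own error of 0.06, from 10 spots, and not with the 0.205 of the median member. Col16a1 was at -1.68 at 48 h and 0.60 at 3 h.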

How the results depend on the processing

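Of 95 values recomputed for the counts, medians and fit, 80 stayed within 1.5 times the count or within the reading error of the median. Medians near 0 changed sign: that of the high dose at 3 h was -0.082 with median centring (0.034 with the 75th percentile), and that of high against low dose was -0.0038 with median centring and -0.011 with the mean of all probes (0.042 with the settings of the report). The 13 lower members at 48 h were 9 with normexp and 17 without the filter on dim probes, and the members at 2-fold kept their sign in every setting. At 48 h the 2 higher members became 1 with normexp, against the 3 h control and, in a comparison chosen after seeing the data, against the 3 h high-dose array, where the median difference was -0.80. At 3 h of the high dose the 2 higher members became 1 with median centring, with normexp or against the 48 h control and 5 without the filter, and the 2 lower became 4 with median centring and 0 with normexp. The low dose had 1 higher member with normexp. High against low dose, with 3 lower in the settings of the report, had 4 with median centring or without the filter. It had 2 lower with the mean of all probes and 1 with normexp, and 1 higher without the filter. Between controls, 1 was higher and 1 lower without the filter. The fit called 0 members in all settings. With normexp, Col1a2, Col11a2, Col17a1, Col18a1 and Col2a1 fell under 2-fold at 48 h. Col1a1, Col1a2 and Col17a1 did so against the 3 h high dose, as did Col2a1. The cause was not tested. No paired analysis was possible because each group has 1 array; the fit takes time as a term and so sets high dose against control within each time. Dim members have bounds only.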
